A study of Mus musculus with 8 samples.

Results

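Caspases are proteases that carry out apoptosis, and this account follows the mRNAs of 4 of them and of 4 proteins that switch them on or hold them back. The set was chosen by gene name on the array: Casp2, Casp6, Casp8, Casp9, Apaf1, Xiap (which the array calls Birc4), Birc2 and Diablo. Every probe with such a name was taken, which gave 13 probes for 8 genes, of 28785 gene names and 41174 probes in all. The rule uses names alone, and the genes were picked with earlier results of these data known.

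RNA came from mouse embryonic stem (ES) cells of Dazl-GFP, a transgenic line that the labels call re-derived. The cells grew over γ-irradiated feeder fibroblasts in DMEM with 15% fetal bovine serum, leukemia inhibitory factor and the 2i inhibitor pair, 1 µM PD0325901 against the kinase MEK and 3 µM CHIR99021 against the kinase GSK3β. All groups share this line and medium. The groups are 3 input arrays of total RNA with no antibody, 2 arrays of RNA from a native immunoprecipitation (IP, done without crosslinking) with anti-PABP1, and 3 arrays of RNA from a native IP with anti-GFP. The labels give neither the promoter of the transgene nor whether GFP is joined to DAZL, an RNA-binding protein of germ cells. PABP1 binds poly(A) tails, and an IP with a control antibody was not analysed here. Separate cultures are not stated for the replicate arrays, and the spread behind each p-value is that between arrays, which may be technical.

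Apoptosis can start at the cell surface or at the mitochondrion. Casp8 is the initiator at death receptors, Casp9 is the initiator on the apoptosome, a wheel of Apaf1 proteins that forms around cytochrome c, and Casp2 is activated on a complex with the adaptors Pidd1 and Cradd. The initiators cut effector caspases such as Casp6, which then cut proteins across the cell. Xiap binds and blocks caspases directly, Birc2 (cIAP1) is a ubiquitin ligase that acts mainly on TNF receptor signalling, and Diablo (Smac) leaves the mitochondrion and displaces these inhibitors. DAZL binds the 3′ untranslated regions of target mRNAs, and Casp2 and Casp9 mRNAs have been described among its targets in germ cells.

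Values are log2 signals: the log2 processed intensity of a probe minus the 75th percentile of its array, so 0 is the level of a probe at that percentile. Between 41.5% and 52.6% of spots per array were well above background, and log2 signals correlated across probes at 0.973 to 0.992 within groups and 0.843 to 0.921 between them. An IP shows how much of the recovered RNA a transcript makes up, so a higher value is relative to the other RNAs of that IP. A probe was tested if all arrays of 1 or more groups flagged it as well above background, which held for 20638 probes. Of the 13 member probes, 10 were tested and none was saturated. Of these, 6 were well above background on all 8 arrays (Casp2, Casp9, Casp6, 1 of the 3 for Apaf1, Birc2 and 1 of the 2 for Diablo). The other 4 tested probes (Casp8, a second for Apaf1 and both for Xiap) passed this filter through IP arrays while dim on some or all inputs. That favours a difference between the groups, so they are counted apart, and the adjusted p of such a probe against a dim group is no independent support. The arrays lie on 2 slides. Slide 1 holds 2 inputs, 1 PABP1 IP and 1 GFP IP, and slide 2 holds 1 input, 1 PABP1 IP and 2 GFP IPs. A p from 1 slide alone takes its spread from the group with 2 arrays there, the inputs on slide 1 and the GFP IPs on slide 2, and from the prior.

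**Figure D1:**
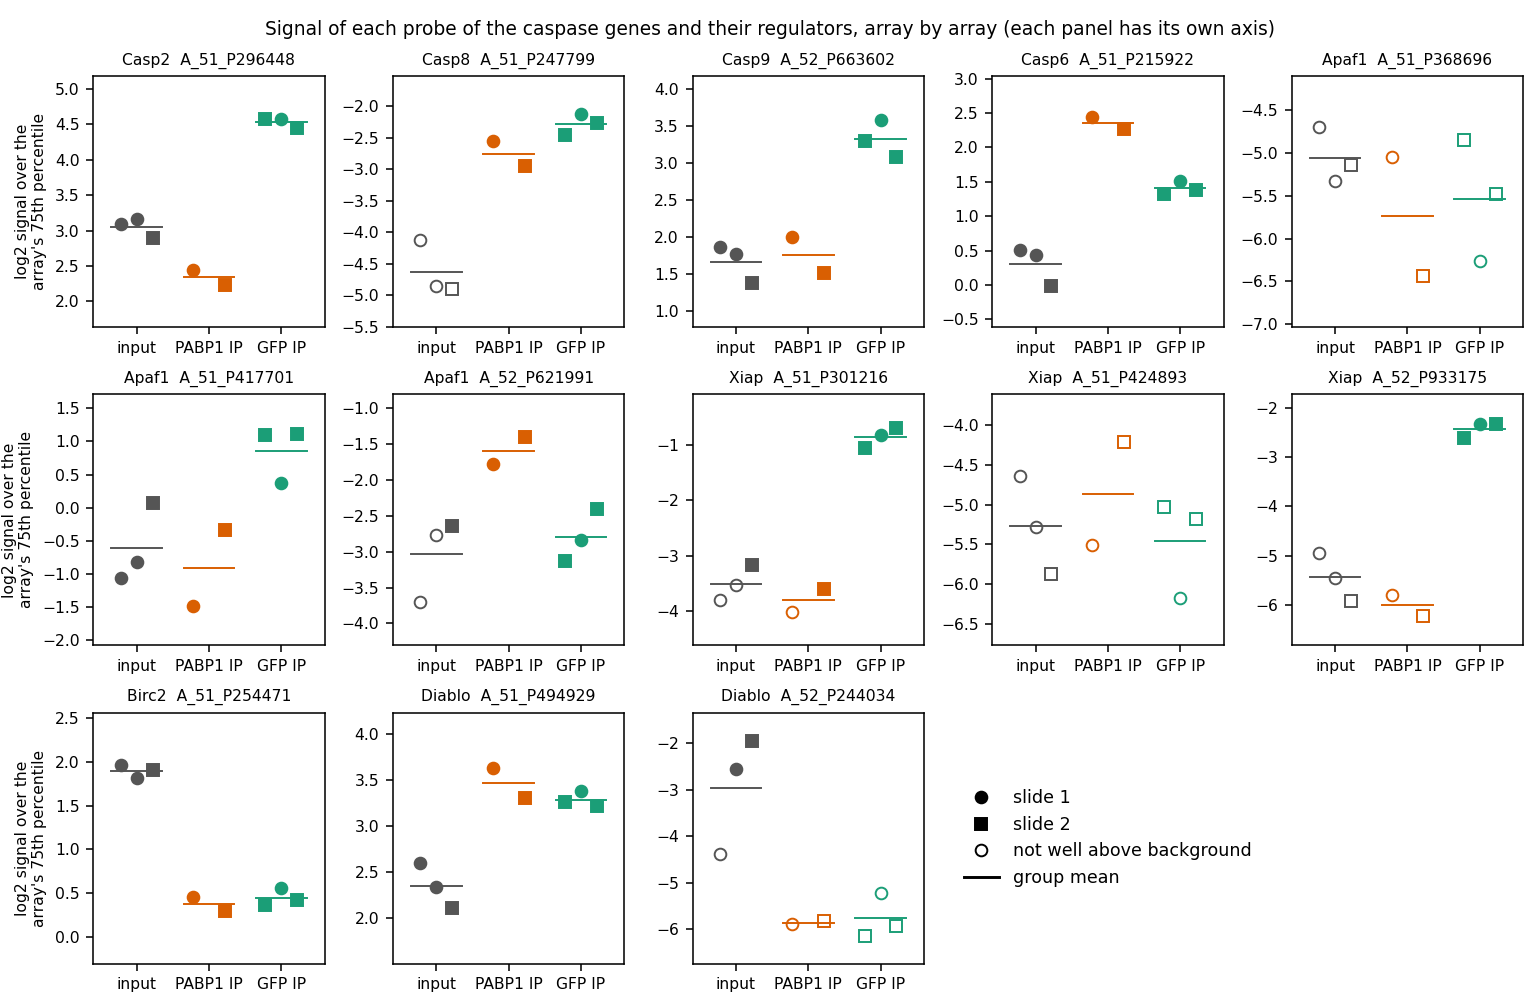
Log2 signal, relative to the 75th percentile of the array, for each of the 13 member probes on each of the 8 arrays, grouped as input, PABP1 IP and GFP IP; circles are on slide 1 and squares on slide 2, open symbols are not well above background, lines are group means, and each panel has its own axis. Casp2 and Casp9 are highest on the 3 GFP IP arrays, Casp6 on the 2 PABP1 IP arrays and Birc2 on the 3 inputs.

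Casp2 mRNA was most abundant in the GFP IP and least abundant in the PABP1 IP. Its log2 signals (probe A_51_P296448) were 3.09, 3.16 and 2.90 in the inputs, 2.44 and 2.24 in the PABP1 IPs, and 4.58, 4.58 and 4.45 in the GFP IPs. No group overlapped another. Casp2 was 1.49 ± 0.13 higher (log2 difference ± SE) in the GFP IP than in input, a 2.80-fold difference (adjusted p = 8.58e-05, limma with Benjamini-Hochberg adjustment over all tested probes, as for every adjusted p that follows). It was lower in the PABP1 IP than in input, by -0.71 ± 0.14 (adjusted p = 0.00374), so the IPs differed by 2.20 ± 0.14, or 4.59-fold (adjusted p = 1.86e-05). Within slide 1 and slide 2 the GFP IP differed from input by 1.46 and 1.61, and the PABP1 IP by -0.69 and -0.66, the latter not past the threshold on slide 2 alone (adjusted p = 0.0668, from 1 array of each group and the spread of the GFP IPs).

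Casp9 mRNA was also highest in the GFP IP, while the PABP1 IP could not be told apart from input. The Casp9 log2 signals (A_52_P663602) were 1.86, 1.76 and 1.38 in the inputs, 2.01 and 1.51 in the PABP1 IPs, and 3.30, 3.58 and 3.09 in the GFP IPs. The GFP IP arrays all lay above the other 5, among which input and PABP1 IP overlapped. Casp9 was 1.66 ± 0.21 higher in the GFP IP than in input, or 3.15-fold (adjusted p = 0.000450), and 1.56 ± 0.24 higher than in the PABP1 IP, or 2.96-fold (adjusted p = 0.000779). The PABP1 IP differed from input by 0.09, with a 95% interval of -0.46 to 0.65 (adjusted p = 0.757). Over input, the GFP IP value was 1.77 within slide 1 and 1.82 within slide 2.

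Casp8, the initiator of the death receptor route, was seen in both IPs and was not well above background on any input. Its log2 signals (A_51_P247799) were -4.12, -4.85 and -4.91 in the inputs, -2.56 and -2.95 in the PABP1 IPs, and -2.46, -2.12 and -2.27 in the GFP IPs. Both IPs lay above the inputs, and every GFP IP array lay above both PABP1 IP arrays by a small margin. For a probe dim on a whole group, that group was set per array at the higher of its own value and the lowest signal of any probe well above background. Where this raised the dim values, the fold is a lower bound, written as at least. For Casp8 it raised none, so its folds are fitted values and not bounds. Casp8 was 5.07-fold higher in the GFP IP than in input (95% interval of the log2 difference 1.78 to 2.91, adjusted p = 0.000174). In the PABP1 IP it was 3.66-fold higher than in input (interval 1.24 to 2.50, adjusted p = 0.000769). The probe was tested only because the IP arrays were above background. The IPs differed by 0.47, with an interval of -0.16 to 1.10 (adjusted p = 0.151). This last difference passed the threshold under 3 other scalings, at 0.73 to 0.93.

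The effector Casp6 had another order, with the PABP1 IP highest, the GFP IP between and input lowest. Its log2 signals (A_51_P215922) were 0.50, 0.44 and -0.01 in the inputs, 2.44 and 2.26 in the PABP1 IPs, and 1.32, 1.52 and 1.38 in the GFP IPs, with no overlap between groups. Casp6 was 2.04 ± 0.19 higher in the PABP1 IP than in input, or 4.12-fold (adjusted p = 9.74e-05), and 1.10 ± 0.17 higher in the GFP IP, or 2.14-fold (adjusted p = 0.00103). The GFP IP was lower than the PABP1 IP, at -0.94 ± 0.19 (adjusted p = 0.00294). That value was -0.49 with each array scaled to its median (adjusted p = 0.0382), -0.54 when only detected probes set the percentile (adjusted p = 0.0213) and -0.46 in the authors' deposited table. Between the IPs the value was -0.92 within slide 1 and -0.91 within slide 2. Casp2 and Casp6 thus lay on opposite sides of 0 in 2 of the 3 comparisons: the PABP1 IP over input and the GFP IP over the PABP1 IP.

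The probes of Apaf1, the scaffold of the apoptosome, did not give 1 pattern. A_51_P417701, whose accession is that of RefSeq NM_001042558, had log2 signals of -1.06, -0.82 and 0.08 in the inputs, -1.48 and -0.33 in the PABP1 IPs, and 1.09, 0.37 and 1.11 in the GFP IPs. All 3 GFP IP arrays lay above the other 5, and the spread within groups was wider than for Casp2 or Casp9. This probe was 1.46 ± 0.41 higher in the GFP IP than in input (adjusted p = 0.0174) and 1.76 ± 0.46 higher than in the PABP1 IP (adjusted p = 0.0112). The PABP1 IP differed from input by -0.30, with an interval of -1.39 to 0.79 (adjusted p = 0.602). With the slide as a block that value was -0.46 and passed the threshold (adjusted p = 0.0199). The GFP IP over input lost its call without any 1 of GFP IP 1, GFP IP 3, Input 1 or Input 2 (adjusted p from 0.0560 to 0.0598), and the GFP IP over the PABP1 IP without PABP1 IP 1 (1.19, adjusted p = 0.0842).

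A_52_P621991, the Apaf1 probe with accession NM_009684, was highest in the PABP1 IP instead. Its log2 signals were -3.70, -2.76 and -2.65 in the inputs, of which only the last was well above background, -1.78 and -1.41 in the PABP1 IPs, and -3.13, -2.84 and -2.41 in the GFP IPs. Input and GFP IP overlapped, and both PABP1 IP arrays lay above them. The PABP1 IP was 1.44 ± 0.36 above input (adjusted p = 0.0102), and the GFP IP was below the PABP1 IP at -1.20 ± 0.36 (adjusted p = 0.0194). The GFP IP over input was 0.25, with an interval of -0.51 to 1.00 (adjusted p = 0.517). Slide 1 alone gave 1.46 for the PABP1 IP over input (adjusted p = 0.0581), and slide 2 alone gave 1.24 (adjusted p = 0.0655). Neither called value held throughout: without PABP1 IP 2 the PABP1 IP over input was 1.26 (adjusted p = 0.0636), and without GFP IP 1 or PABP1 IP 2 the difference between the IPs had an adjusted p of 0.0583 or 0.0982. That difference also missed the threshold under 3 other scalings, at -0.92 to -0.74 (adjusted p from 0.0838 to 0.169). The third Apaf1 probe, A_51_P368696, was not well above background on any of the 8 arrays. The mean of the tested Apaf1 probes passed the threshold in none of the 3 comparisons, with adjusted p of 0.0545, 0.220 and 0.504, so the array gives no single direction for the gene.

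Xiap, the inhibitor that binds caspases directly, was seen on every GFP IP array and on few others. Of its 3 probes, A_51_P301216 gave -3.80, -3.53 and -3.17 in the inputs, -4.01 and -3.59 in the PABP1 IPs, and -1.06, -0.82 and -0.69 in the GFP IPs. Only Input 3 and PABP1 IP 2 were well above background outside the GFP IP, and the GFP IP arrays stood clear of the rest. The fitted difference from input was 2.64 ± 0.21 (adjusted p = 6.30e-05) and that from the PABP1 IP 2.95 ± 0.23 (adjusted p = 3.71e-05), both against groups measured on 1 array each. The probe A_52_P933175, with the same accession, was well above background on the 3 GFP IP arrays alone, at -2.63, -2.33 and -2.34. It was at least 5.93-fold higher there than in input (adjusted p = 8.97e-05) and at least 8.46-fold higher than in the PABP1 IP (adjusted p = 4.37e-05). Both Xiap probes were tested only because the GFP IP arrays were above background. For A_52_P933175 input and PABP1 IP were both below background. For A_51_P301216 the PABP1 IP differed from input by -0.30 ± 0.23 (adjusted p = 0.295). The third Xiap probe, A_51_P424893, carries the RefSeq accession NM_009688 and was below background on all 8 arrays, so the pattern rests on the probes with the other accession.

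Birc2, the ubiquitin ligase cIAP1, was the 1 member gene whose tested probe was lower in both IPs than in input. Its log2 signals (A_51_P254471) were 1.96, 1.82 and 1.90 in the inputs, 0.46 and 0.30 in the PABP1 IPs, and 0.37, 0.56 and 0.43 in the GFP IPs. The inputs lay more than 1 log2 unit above every IP array, and the IPs overlapped. Birc2 differed from input by -1.44 ± 0.12 in the GFP IP, a 2.72-fold lower level (adjusted p = 6.93e-05), and by -1.51 ± 0.13 in the PABP1 IP, 2.86-fold lower (adjusted p = 7.69e-05). Against input the GFP IP value was -1.33 within slide 1 and -1.50 within slide 2, and the PABP1 IP value was -1.43 and -1.60. With each array scaled to its median the GFP IP over input was -0.91 (adjusted p = 0.00184). Between the IPs it was 0.07, with an interval of -0.23 to 0.38 (adjusted p = 0.627). That last value depends on the scaling: with each array scaled to its median it was 0.53 (adjusted p = 0.0272), and with the percentile taken over detected probes 0.47 (adjusted p = 0.0146).

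Diablo, the mitochondrial antagonist of these inhibitors, was higher in both IPs than in input. Its log2 signals (A_51_P494929) were 2.59, 2.34 and 2.10 in the inputs, 3.63 and 3.30 in the PABP1 IPs, and 3.26, 3.37 and 3.22 in the GFP IPs. The IPs overlapped each other and lay above the inputs. Diablo was 0.94 ± 0.16 higher in the GFP IP, or 1.92-fold (adjusted p = 0.00205; 1.47 with median scaling, adjusted p = 0.000159), and 1.12 ± 0.18 higher in the PABP1 IP, or 2.18-fold (adjusted p = 0.00147). The IPs differed by -0.18, with an interval of -0.62 to 0.25 (adjusted p = 0.390), and by 0.27 with each array scaled to its median. Birc2 and Diablo therefore moved in opposite directions against input in both IPs. Against input the GFP IP value was 0.91 within slide 1 and 1.14 within slide 2, and the PABP1 IP value was 1.17 and 1.20. A second Diablo probe, A_52_P244034, was too dim to be tested and ran the other way. It was well above background on Input 2 and Input 3, at -2.56 and -1.95, and on no IP array, where it lay between -6.13 and -5.22.

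**Figure D2:**
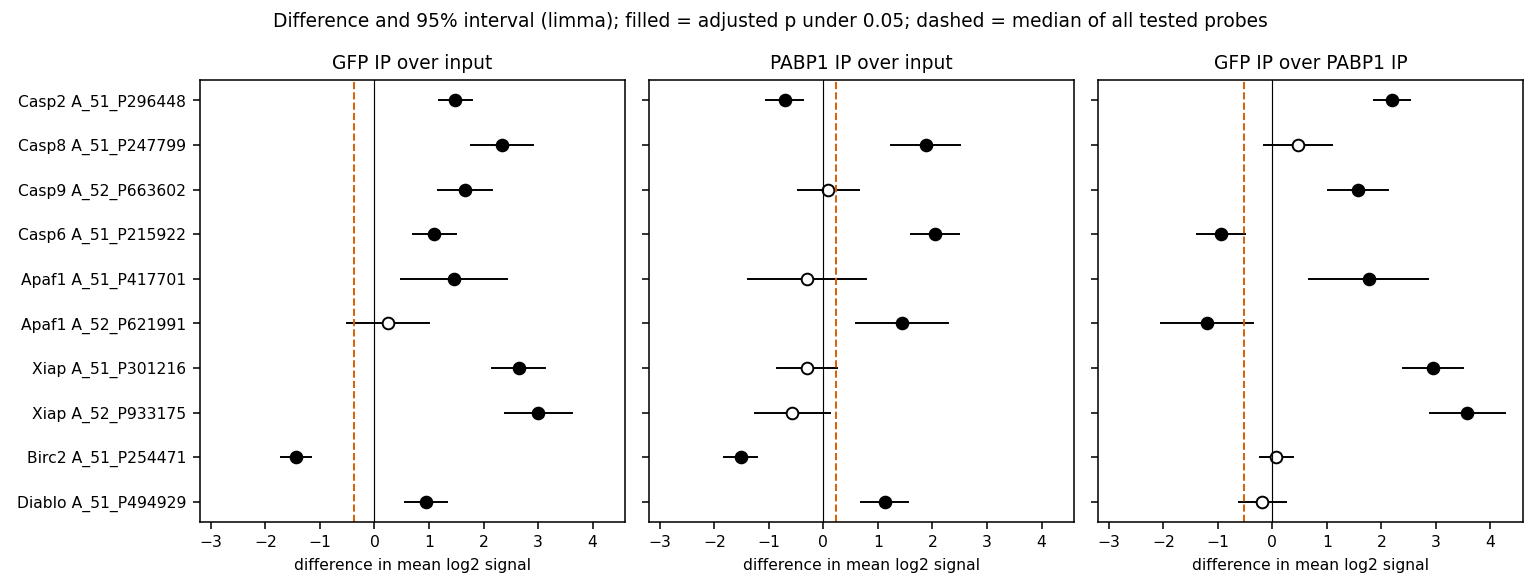
Difference in mean log2 signal with its 95% interval (limma) for the 10 tested member probes in the 3 comparisons. Filled points passed an adjusted p of 0.05, and the dashed line is the median of all tested probes (-0.38, 0.22 and -0.52). All values are fitted, so the points of Xiap A_52_P933175 against dim groups are not the bounds of the text. Birc2 is the 1 probe left of 0 in the GFP IP over input, and Casp2 and Casp6 lie on opposite sides of 0 in the other 2 comparisons.

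The counts of members stand against a background in which most probes passed the test. In the GFP IP over input, 5 of the 6 probes seen on all arrays were higher and 1 was lower. Among all 15119 probes seen on all arrays, 24.3% were higher and 43.8% lower. In the PABP1 IP over input, 2 of the 6 were higher (Casp6 and Diablo), 2 lower (Casp2 and Birc2) and 2 passed in neither direction, against 37.1% higher and 28% lower. In the GFP IP over the PABP1 IP, 3 were higher (Casp2, Casp9 and Apaf1), 1 was lower (Casp6) and 2 did not pass, against 26.4% and 46.9%. Over all 20638 tested probes, the shares called in either direction were 63.3%, 60.4% and 70.2%, and the shares higher and lower were 24.2% and 39.1%, 34.5% and 25.9%, and 26.6% and 43.7%. Groups did not overlap, with the first group higher or lower, for 26.2% and 42.1% of tested probes in the GFP IP over input, 40.7% and 30.5% in the PABP1 IP over input, and 30.4% and 49.9% between the IPs. With each array scaled to its median, the share of called probes that were higher was 64.3% in the GFP IP over input, against 38.2%, and 52% between the IPs, against 37.8%, while the 6 bright member probes kept their direction wherever called. The 4 dimmer probes added 3 higher calls in the GFP IP over input, 2 in the PABP1 IP over input, and 2 higher and 1 lower between the IPs. The 3 comparisons share arrays, so their calls are not independent of each other.

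The member probes also differ in where they lie among all probes. The median tested probe was at -0.38 in the GFP IP over input, so Casp9 stood 2.04 and Casp2 1.86 above the median. Birc2 was at -1.06 relative to it and lay at the 12.5th percentile of tested probes. In the PABP1 IP over input the median was 0.22, with Casp6 at the 93.9th percentile and Birc2 at -1.74 relative to the median. Between the IPs the median was -0.52, so Birc2 and Diablo, near 0, lay at the 63.5th and 58.0th percentiles. Casp6, though called lower there, lay at the 38.8th.

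**Figure D3:**
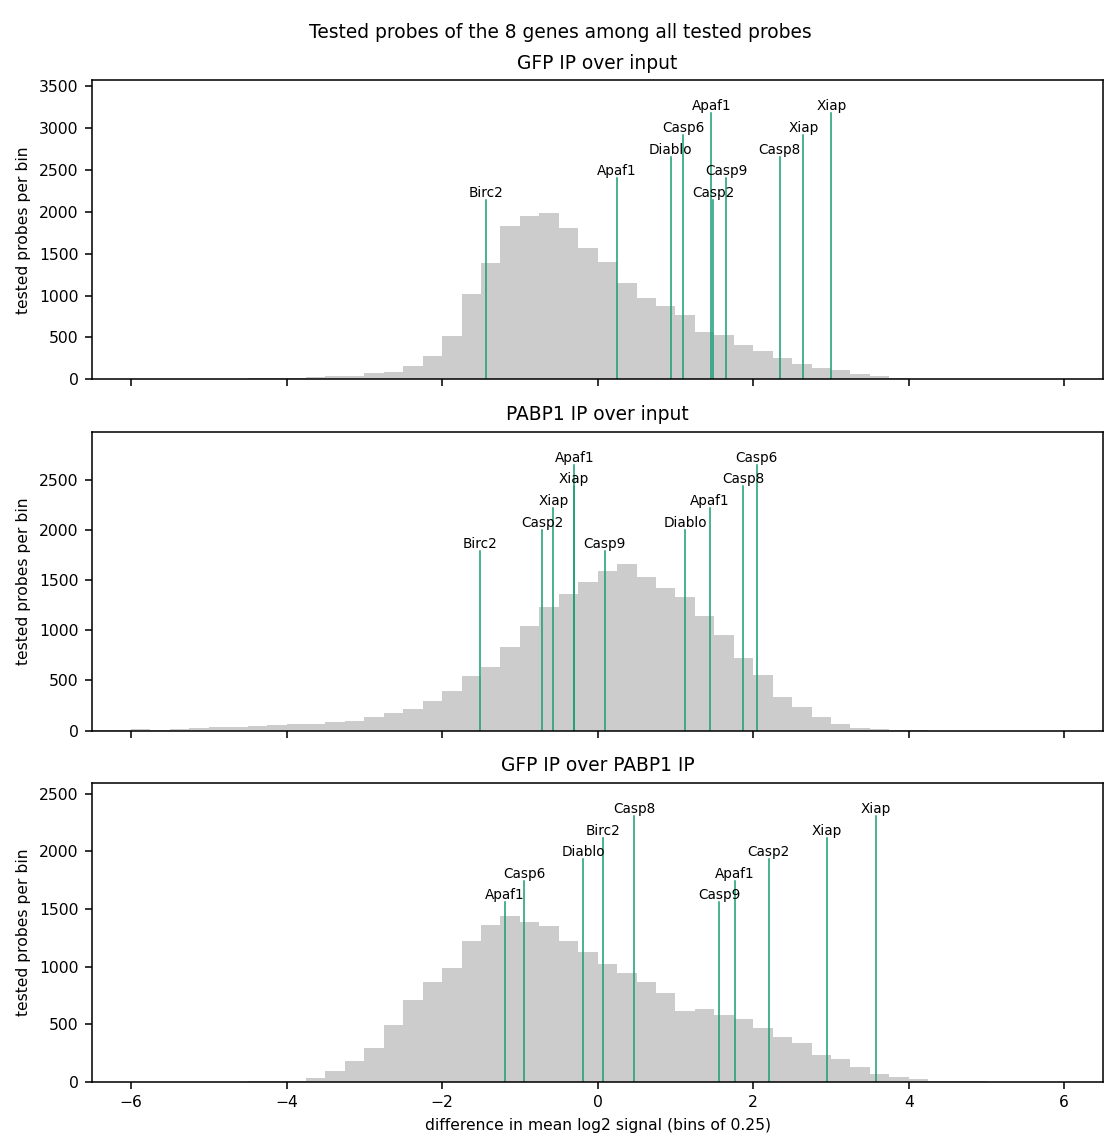
Histograms of the log2 differences of all 20638 tested probes in each comparison, with the 10 tested member probes marked. In the GFP IP over input the probes of Xiap lie in the right tail and Birc2 lies left of the median of -0.38.

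How far a value holds depends on the background correction and the scaling. Normexp correction starts from each spot's mean signal and median background, not from the processed intensity, so spatial trends and dim spots are treated differently. It also adds an offset of 50 intensity units, where the 75th percentiles of the processed intensity were 63.6 to 182. How much each step changes a value was not tested. With normexp, none of the 8 probes called higher in the GFP IP over input passed limma's adjusted threshold, and 4 had an unadjusted p under 0.05. Casp2 was then 1.31 (adjusted p = 0.0852), Casp9 1.31 (0.0812), Casp6 0.74 (0.130), Casp8 0.14 (0.900), Apaf1 0.67 (0.155), Diablo 0.75 (0.281) and the Xiap probes 0.53 (0.243) and 0.30 (0.738). Birc2 kept its call at -0.95 (adjusted p = 0.0366). Over input in the PABP1 IP, Casp6 (1.71, adjusted p = 0.00892) and Birc2 (-1.01, 0.0263) kept theirs under normexp. Casp2 (-0.39, adjusted p = 0.681), Diablo (1.29, 0.0824), Apaf1 (0.01, 0.988) and Casp8 (-0.18, 0.823) did not, Casp8 with the opposite sign. Between the IPs, Casp2 (1.71, adjusted p = 0.0290), Casp6 (-0.97, 0.0472) and Xiap (0.93, 0.0438) kept their calls. Casp9 (1.07, adjusted p = 0.135), both tested Apaf1 probes (0.91, 0.0559, and -0.10, 0.937) and the dimmer Xiap probe (0.62, 0.322) lost theirs. In the authors' deposited table of group mean intensities, the GFP IP over input log2 ratios were 2.05 for Casp2, 2.24 for Casp9, 2.83 for Casp8, 1.64 for Casp6, 1.49 for Diablo and -0.90 for Birc2, with no error given here.

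**Figure D4:**
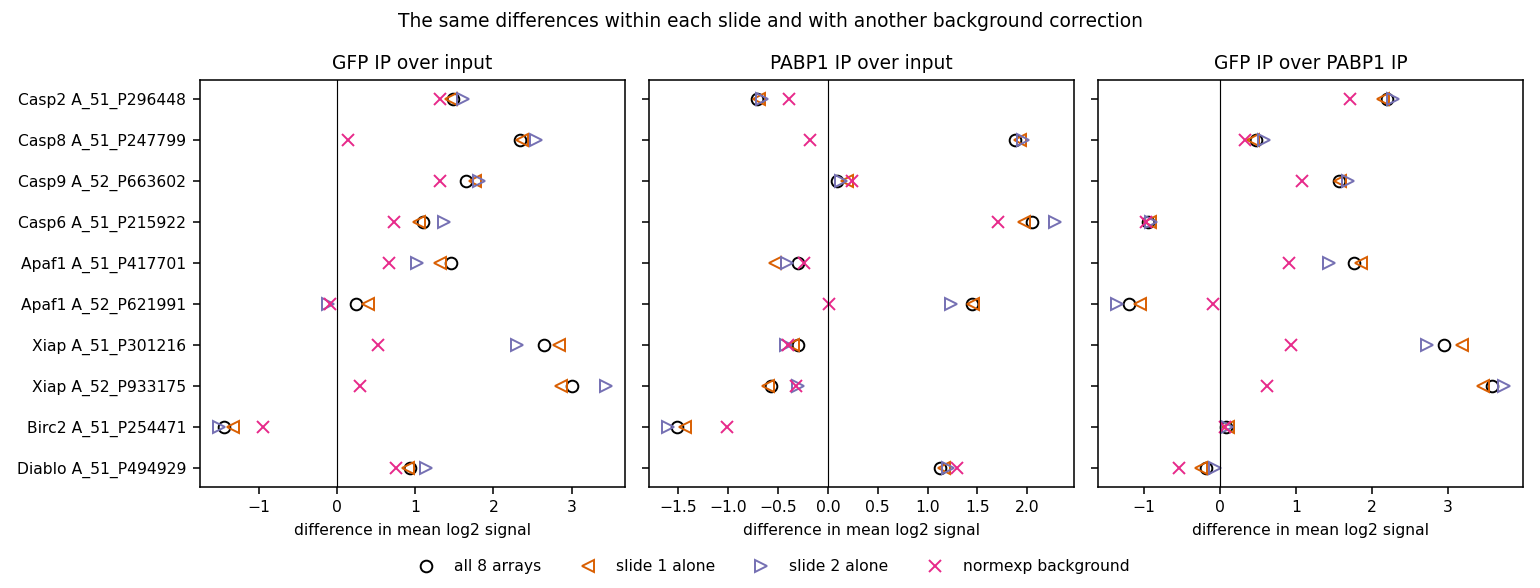
Difference in mean log2 signal of the 10 tested member probes in the 3 comparisons, from all 8 arrays (circles), slide 1 alone and slide 2 alone (left and right triangles) and with normexp background correction (crosses). All values are fitted, so those of Xiap A_52_P933175 against dim groups are not the bounds of the text. Normexp correction pulls the dim probes of Casp8 and Xiap towards 0 (0.14 and 0.30 in the GFP IP over input), while Birc2 stays below 0 in both IPs over input.

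Other genes of the caspase pathway were read from a list of 39, of which 33 had a tested probe. Among the genes named below, Cflar had 1 of 5 probes tested, Rock1 and Aven 1 of 3 each, and Fas 1 of 2. In the GFP IP over input, 2 of the 33 were higher and 19 lower, with a median of -0.68. With 1 probe per gene, 21.3% of all tested genes were higher and 42.9% lower, with a median of -0.50. With median scaling the list's counts were 6 higher and 9 lower, with quantile normalization 4 and 16, and with the slide as a block 4 and 20. Those higher were the kinase and caspase substrate Pak2 (1.21 ± 0.12, adjusted p = 0.000180) and the Casp8 inhibitor Cflar (0.86 ± 0.17, adjusted p = 0.00362). By role, the probe that stood for each of the 5 mitochondrial factors was lower: Cycs (cytochrome c), Endog, Htra2, Aifm1 and Septin4. A second Aifm1 probe gave 0.46. With each array scaled to its median, Cycs (-0.44, adjusted p = 0.195) and Endog (-0.15, adjusted p = 0.598) were not called, and with normexp none of the 5 was (an adjusted p from 0.0576 to 0.561). The lowest values were those of the substrate Rock1 (-2.80), nuclear lamin Lmna (-1.87), Septin4 (-1.62), the death receptor Fas (-1.57), the TNF receptor adaptor Traf2 (-1.51) and the large inhibitor of apoptosis Birc6 (-1.50).

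In the PABP1 IP over input the list divided more evenly, with 11 of 33 higher, 9 lower and a median of 0.14. Without PABP1 IP 1, 6 were higher and 9 lower. Over all genes 34% were higher and 25.5% lower, with a median of 0.24. Cytochrome c (Cycs, 1.67 ± 0.16, adjusted p = 0.000134), the inhibitor Aven (1.65), the nuclease Endog (1.61), the death receptor adaptor Fadd (1.34) and the mitochondrial protein Hax1 (1.30) were higher. A second Fadd probe gave 0.06. Gas2, a cytoskeletal caspase substrate, was not well above background on any input and was at least 7.33-fold higher. It lost its call without PABP1 IP 1 (2.08, adjusted p = 0.0578). Rock1 was below background on both PABP1 IP arrays. Its fitted difference from input was -5.91 ± 0.45, or 60.1-fold lower, which is not a bound. Birc6 (-2.03), the Casp8 partner Casp8ap2 (-2.00), the apoptosome regulator Uaca (-1.73), Bfar (-1.45) and Acin1 (-1.28) were also lower, though other Bfar probes gave -0.34 and 0.34 and other Acin1 probes ranged from -4.98 to 0.98. Without PABP1 IP 1, Bfar lost its call (-1.09, adjusted p = 0.0599).

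Between the IPs, 8 of the 33 genes were higher in the GFP IP and 20 lower, with a median of -0.98. Over all genes 23.9% were higher and 47% lower, with a median of -0.66. Cflar (2.10 ± 0.19, adjusted p = 6.74e-05), Pak2 (2.08), Casp8ap2 (1.75), Uaca (1.42) and the DNA damage enzyme Parp1 (0.79) were higher. Rock1 was 3.11 ± 0.45 higher, or 8.65-fold, a fitted value against PABP1 IP arrays below background and not a bound. Without PABP1 IP 2, Parp1 lost its call (0.66, adjusted p = 0.0680). Cycs (-2.64 ± 0.16, adjusted p = 1.69e-05), Fas (-2.41), Endog (-2.30), Gas2 (-2.28), Hax1 (-1.88) and Fadd (-1.80) were lower, and the second Fadd probe gave -0.22. Gas2 was seen on 1 of the 3 GFP IP arrays and lost its call without PABP1 IP 1 (-1.37, adjusted p = 0.160) or without GFP IP 2 (-1.85, adjusted p = 0.0552). The probes that stood for the 5 mitochondrial factors were again lower, and so were those of 8 of the 10 tested death receptors and adaptors. With normexp Septin4 (-0.25, adjusted p = 0.747) and Aifm1 (-1.21, adjusted p = 0.0820) lost their calls. With median scaling the adaptor Pidd1 turned to 0.094 (adjusted p = 0.707), and Tnfrsf10b (-0.13, adjusted p = 0.563) and Traf2 (-0.38, adjusted p = 0.171) lost theirs; all 3 also lost their calls without PABP1 IP 1 (adjusted p = 0.145, 0.0608 and 0.263). Normexp correction left none of the 33 genes higher by limma (1 at an unadjusted p under 0.05) and 3 lower in the GFP IP over input, 5 and 3 in the PABP1 IP over input, and 3 and 10 between the IPs.

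**Figure D5:**
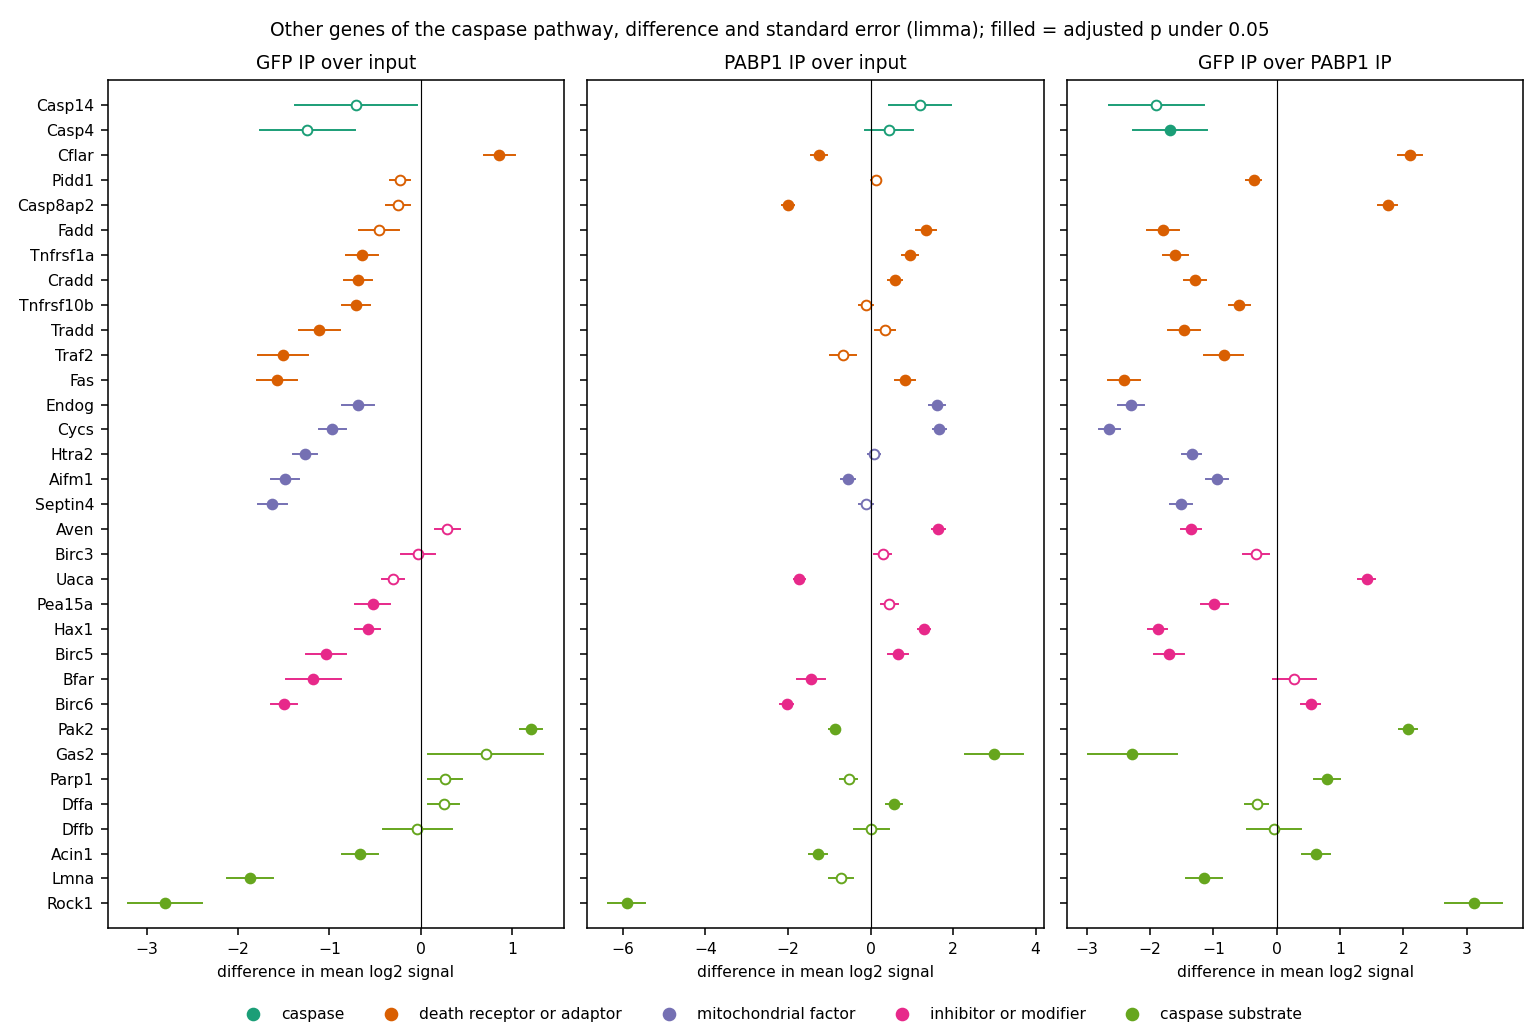
Log2 differences of the 33 tested genes of the caspase pathway list, grouped by role, in the 3 comparisons, with standard errors as bars; filled points passed an adjusted p of 0.05. The probes of the 5 mitochondrial factors all lie below 0 in the GFP IP over input and in the GFP IP over the PABP1 IP.

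Markers of both cell types of the culture were present in every group. All 10 ES cell markers were well above background on every array, and their summed linear signal, in units of the array's 75th percentile, was 2201 to 4181 in the inputs, 2026 to 3935 in the PABP1 IPs and 1468 to 1989 in the GFP IPs. Dppa5a made up most of this sum. Its mean log2 signal was 11.45 in input and 10.13 in the GFP IP, against 8.22 and 8.12 for Klf4, the next brightest. In the GFP IP over input 5 of the 10 were higher, the direction of Casp2 and Casp9, and 2 lower (median 0.45). In the PABP1 IP over input 4 were higher and 2 lower (median 0.24). Over all genes, 21.3% were higher and 42.9% lower in the GFP IP over input. In the PABP1 IP over input these shares were 34% and 25.5%. Of 18 feeder fibroblast markers, 17 were tested, and their summed signal was 190 to 250 in the inputs, 280 to 314 in the PABP1 IPs and 80.2 to 124 in the GFP IPs. In the GFP IP over input 13 of these 17 were lower and none higher (median -1.13). Lower is the direction of Birc2 and the commoner one over all genes. It is opposite to that of Casp2, Casp9, Casp6, Diablo and the brighter Apaf1 probe. In the PABP1 IP over input 8 were higher and 3 lower (median 0.66). Higher is the direction of Casp6 and Diablo and the commoner one over all genes there. The part of either cell type in the members' values was not tested. In such mixed samples, the share of a marker mRNA that an IP recovers, the number of cells of a type and the RNA per cell cannot be told apart.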

How the data were processed

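RNA from 3 inputs, 2 PABP1 IPs and 3 GFP IPs was hybridised to 8 one-colour Agilent arrays of design 014868. Intensity values were deposited as made by Feature Extraction 9.1.3.1, per the file headers, with background subtracted, spatial trends removed and a surrogate for dim spots. The deposited files also hold other values, flags for outlier spots, saturation and signal well above background. A further table from the authors gives group mean intensity values on a scale that no source used here explains, and its 3 error columns were not used.

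From each log2 intensity the 75th percentile over that array's 43379 probe spots was subtracted. Repeated spots were averaged to 1 value per probe, and 30 probes with outlier spots were left out. Linear models were fitted to all arrays together with limma 3.58.1 (R 4.3.3; eBayes with 2.17 prior and 5 residual degrees of freedom). P-values are two-sided with Benjamini-Hochberg adjustment over 20638 probes and a threshold of 0.05. The code was tested on simulated data. Figures used matplotlib 3.10.9. Bounds came from the same log2 scale. The number of arrays limits the precision.

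Results of 2 further genes of the pathway list are not reported here. The members and lists were chosen with earlier results of these data known. Named genes are all members, the 6 largest called differences each way among the pathway genes (its brightest tested probe standing for a gene), and for each member the 2 probes of other genes nearest in pattern. Other pathway genes named (Htra2, Aifm1, Pidd1, Tnfrsf10b, and those whose direction turned under an alternative) were chosen after their values were seen. No probe sequence was used here, and since no genome build is named with the array, no coordinates are given. Alternatives were other background corrections, scalings, filters, probe summaries, slide and replicate blocks, array weights, each slide alone and each array left out.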

Additional observations from a re-analysis of the deposited data

How the results depend on the processing

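Over up to 22 alternatives each, member values counted as unchanged in 582 of 633 cases, and other pathway genes in 1818 of 2061. Unchanged means the same side of the threshold and, for called values, the same direction. For the authors' table, which has no p, it means a shift within the spread between replicates. Values called in neither setting could change sign and still count, as Diablo did between the IPs with median scaling (-0.18 to 0.27). Such sign changes are not listed below. Normexp left 0, 1 and 2 member probes higher in the GFP IP over input, the PABP1 IP over input and the GFP IP over the PABP1 IP, with 1 lower in each. It left 0, 5 and 3 pathway genes higher and 3, 3 and 10 lower, and of all probes 864, 2336 and 1614 higher and 1138, 966 and 3845 lower. Its sign was reversed for Casp8 (-0.18) and Dffa (-0.056) in the PABP1 IP over input. Scaling to the median gave 6 pathway genes higher and 9 lower and 3887 probes lower in the GFP IP over input, and reversed Birc3 (0.50) and Pea15a (0.0073) there and Pidd1 (0.094) between the IPs. The share of called probes that were higher was 38.2% in the GFP IP over input, against 64.3% with median scaling, and 37.8% between the IPs, against 52% with median scaling and 51% with the percentile over detected probes. In the PABP1 IP over input it was 57.1%, against 70.7% with normexp and 47.6% with the percentile over detected probes. Detected-probe scaling gave 7 pathway genes higher in the PABP1 IP over input and Pidd1 at 0.035 between the IPs. Quantile normalization reversed Htra2 (-0.32) and Birc5 (-0.13) in the PABP1 IP over input. Array weights gave 5 pathway genes higher in the GFP IP over input, quantile normalization and the slide as a block 4 each, and array weights put Dffb at 0.65. With no filter, 2 member probes were lower in the GFP IP over input and 7 pathway genes higher in the PABP1 IP over input. With probes seen on all arrays, 5, 2 and 3 member probes were higher and 1 lower between the IPs. That count lower was also 1 with median, quantile or detected-probe scaling, 1 probe per gene, gene means and slide 1 alone. Gene means gave 3 members higher between the IPs and 3609 genes higher; the highest probe per gene gave 3616 there and 3235 in the GFP IP over input, over fewer rows. On slide 2 alone 1 member probe was lower in the PABP1 IP over input. Slides alone leave 1 residual degree of freedom.

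Leaving out 1 array gave 7 to 8 member probes higher and 1 lower in the GFP IP over input, 3 to 4 and 2 to 3 in the PABP1 IP over input, and 4 to 5 and 1 to 2 between the IPs. These counts include the 4 dimmer probes, which gave 3 of the 8 higher calls in the GFP IP over input with all arrays. Pathway genes ranged over 2 higher and 17 to 20 lower, 6 to 11 and 8 to 12, and 6 to 8 and 14 to 21. All probes ranged over 4329 to 4950 and 6651 to 8399, 5796 to 7089 and 4516 to 5349, and 4676 to 5602 and 7144 to 9288. In the authors' deposited table, member log2 ratios that moved by more than the spread between replicates kept their direction, except Diablo between the IPs (0.28). The cause of these changes was not tested, apart from the smaller numbers of rows or arrays named.

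With the replicate number as a block, 4941, 6740 and 5245 probes were higher and 7992, 5244 and 8336 lower in the 3 comparisons, and no member's call changed. Deviations from group means of same-numbered arrays correlated at 0.51 to 0.57 where they shared a slide (3 pairs) and at -0.71 to -0.24 where they did not (4 pairs). Arrays with different numbers on the same slide correlated at 0.42 to 0.74 (7 pairs). The sign followed the slide, but these pairs are not separate evidence. Deviations of both PABP1 IP arrays from their mean are mirror images, and these arrays lie on different slides. Part of the opposite signs is therefore fixed by arithmetic. Whether the numbers also pair the samples cannot be judged from these values. Signal over background limits the 4 tested member probes that were dim on some arrays and the 3 untested ones.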

Other observations

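Among all tested probes of other named genes, the pattern most like that of Casp2 over the 8 arrays, after each probe was centred on its own mean, was that of Isg20l2 (root mean square difference 0.0719 log2 units, r = 0.997), followed by Septin8 (0.0722). For Casp9 they were Kansl2 (0.0913) and Men1 (0.109), the gene of menin. Casp8 was nearest to Coprs (0.171) and Tmem170 (0.175), and Casp6 to Spry1 (0.0960), an antagonist of receptor tyrosine kinase signalling, and 5033428A16Rik (0.104). The brighter Apaf1 probe was nearest to Itgav (0.131), an integrin subunit, and Larp1 (0.143), an RNA-binding protein. Xiap was nearest to Qk (0.143), the RNA-binding protein Quaking, and Zfp275 (0.146). Birc2 was nearest to the sodium/proton exchanger Slc9a8 (0.0539) and the mismatch repair gene Pms2 (0.0735), and Diablo to Nrbf2 (0.0895) and Msantd3 (0.0949). These arrays share slides and groups, so the likeness is a description of these 8 arrays.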
